A study of Mus musculus with 18 samples.

Results

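Ectopic endometriotic lesions of the PRCre genotype were compared with eutopic endometrium of the same genotype, the uterine lining that stays in place, on 6 of the 18 arrays of the series. The arrays were chosen by their titles alone: 3 carried PRCre ectopic lesions and 3 carried PRCre eutopic endometrium. The lesions grew from uterine fragments of PRCre/+ mice, punched at 2 mm, each implanted in a wild-type C57BL/6J host of 8 weeks, so host cells in a lesion were wild type. The eutopic endometrium came from PRCre/+ mice that themselves carried an implant of wild-type uterus, put in at 8 weeks. Lesion and eutopic RNA thus stemmed from different mice. Tissue was taken at estrus, 4 weeks after the operation, and RNA of 3 animals was pooled on each array, 9 animals a group. PRCre mice express Cre recombinase from the progesterone receptor locus and served as the control of the series. The matching ERBOE groups came from mice described as overexpressing estrogen receptor beta. They are used only for Esr2 levels and to set the same difference beside that of PRCre. Uterus of unoperated PRCre mice, taken at 12 weeks of age with 3 animals an array and 9 a group, is read for Grem1 alone. The labels do not fully agree: the source field speaks of lesions of PRCre mice, and the text on eutopic tissue mentions a lesion harvest before the pooling of endometria. Titles were followed.

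Endometriosis is the growth of endometrium-like glands and stroma outside the uterus, usually on the peritoneum or on fat of the abdominal cavity. A lesion attaches, recruits vessels and is entered by macrophages, neutrophils and lymphocytes of the host, and it responds to estrogen through estrogen receptors alpha and beta. Glands of the mouse uterus depend on the transcription factor Foxa2, the stroma on factors such as Hand2 and the Hox genes, and secreted antagonists of bone morphogenetic proteins, among them gremlin 1, tune growth signals between tissue layers.

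The 6 arrays had similar brightness. The 75th percentile of the spot signal, against which all levels below are given in log2 units, was 511.8 to 714.5 on the lesion arrays and 584.9 to 656.8 on the eutopic arrays. The share of probes well above background was 59.1% to 72.9% on lesion arrays and 58.9% to 67.2% on eutopic arrays, and 0 spots were saturated. Arrays of 1 group correlated at 0.944 to 0.960 and arrays of different groups at 0.925 to 0.967, so the groups did not separate by their overall correlation. Lesion replicate 2 was the highest array for the macrophage, MHC class II, B cell, T cell, lymphoid organiser, chemokine and complement lists, and eutopic replicate 1 with the lowest level of epithelial genes and the highest of adipocyte genes among eutopic arrays. Medians that shift without 1 of these arrays are given below for the main lists. Lesions were hybridised on slides 1 and 2 and eutopic samples on slides 2 and 3, so only slide 2 held both, with 2 lesion arrays and 1 eutopic array. The difference within slide 2 is given without a test. All 31 epithelial, all 12 stromal and 17 of 18 smooth muscle genes listed for uterus were well above background on all 6 arrays, the exception being Lmod1 on 1 lesion array.

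A limma model over 33178 features, 17901 of them with a gene symbol, called 1 feature at a Benjamini-Hochberg adjusted p under 0.05, which is 0.00301% of the features. That feature was Grem1, higher in lesions, and 0 features (0%) were called lower. At an unadjusted p under 0.05 there were 1318 features, 844 higher (2.54%) and 474 lower (1.43%) in lesions, or 3.97% of those tested. The 3 lesion values lay above all 3 eutopic values for 961 features (2.9%) and below them for 1333 (4.02%). The median difference over all features was -0.06, and 41.7% of differences were positive. With 3 arrays against 3, an exact permutation test of a single gene cannot go below 0.1, so only the model across features is used. All other differences below did not pass the adjusted threshold and are given as measured values with standard errors.

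Grem1 encodes gremlin 1, a secreted protein that binds bone morphogenetic proteins and keeps them from their receptors. It lies on chromosome 2 (GRCm38.p6, chr2:113748675-113758648). The lesion arrays read -1.79, -1.06 and -2.53, against -6.71, -5.51 and -6.42 on the eutopic arrays. All 3 lesion values were well above background and lay far above the eutopic values, none of which was well above background. The means were -1.79 ± 0.73 in lesions and -6.22 ± 0.63 in eutopic endometrium (SD, n = 3 each). The measured log2 difference was 4.43 ± 0.44 (SE; limma, adjusted p = 0.00235). Since no eutopic array measured the gene, the fold is a bound, and Grem1 was at least 7.64-fold higher in lesions. Uterus of unoperated PRCre mice read -5.62, -6.66 and -6.13, also with 0 of 3 arrays well above background. The adipocyte marker list described below stood at 1.43, 2.54 and 0.86 on the same lesion arrays, against 0.32, 0.00 and -0.40 on the eutopic arrays (median over its genes relative to the eutopic mean), and its part in the result was not tested. Within slide 2 the Grem1 difference was 5.00, and with slide as a block 4.85 (limma, adjusted p = 0.00276). The call was lost with only these 6 arrays in the limma fit (adjusted p = 0.554) and with normexp background correction, which raises dim signals and gave a difference of 1.84 (limma, adjusted p = 0.0585).

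The 250 bases before the annotated starts of 3 genes that read higher in lesions are printed from RefSeq on GRCm38.p6, 5′ to 3′ on the gene's strand, to show the called gene beside a member of each of the lists for plasma proteins and fat cells described below. The windows are Grem1 at chr2:113758649-113758898 on the minus strand, Orm2 at chr4:63362199-63362448 on the plus strand and Plin1 at chr7:79732777-79733026 on the minus strand. Capitals mark matches on either strand to TTGCNNAA, a C/EBP-type core, and to TATAAA, known from core promoters. The motifs do not overlap here.
Grem1: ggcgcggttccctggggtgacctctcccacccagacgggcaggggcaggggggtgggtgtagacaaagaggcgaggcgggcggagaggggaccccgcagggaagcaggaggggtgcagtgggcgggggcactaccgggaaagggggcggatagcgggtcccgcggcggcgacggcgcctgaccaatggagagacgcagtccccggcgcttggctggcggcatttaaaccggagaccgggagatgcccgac
Orm2: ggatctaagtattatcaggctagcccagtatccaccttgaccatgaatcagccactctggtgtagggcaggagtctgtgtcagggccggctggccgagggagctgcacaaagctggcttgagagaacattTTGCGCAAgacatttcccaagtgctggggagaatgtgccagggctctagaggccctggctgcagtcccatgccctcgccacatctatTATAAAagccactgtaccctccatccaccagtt
Plin1: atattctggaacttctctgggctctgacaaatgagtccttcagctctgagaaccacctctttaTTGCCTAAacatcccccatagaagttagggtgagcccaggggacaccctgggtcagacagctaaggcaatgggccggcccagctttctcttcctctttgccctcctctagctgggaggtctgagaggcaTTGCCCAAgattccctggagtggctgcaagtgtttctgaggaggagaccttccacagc
Neither motif occurred in the Grem1 window. The Orm2 window held TTGCGCAA from base -120 and TATAAA from base -33, counted back from the start, and the Plin1 window held TTGCCTAA from base -187 and TTGCCCAA from base -58. Of all 32851 promoter windows of this length 9.56% held TTGCNNAA and 12.4% held TATAAA. Counted by gene, where 1 gene may have several windows, TTGCNNAA was present for 10 of 18 acute phase genes and 4 of 17 adipocyte genes with a window. A match is a description of letters, and none was tested for binding.

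Behind Grem1, the 9 named genes with the smallest p among those higher in lesions did not pass, with limma adjusted p between 0.0698 and 0.129. All 9 had lesion values above every eutopic value, against 2.9% of all features. Picking genes by small p favours such separation, so it is no further result. Cryaa, which encodes the small heat shock protein alpha A-crystallin of the lens, read 0.04, -2.77 and -1.28 in lesions, against -6.57, -4.96 and -6.30 in eutopic endometrium, a difference of 4.60 ± 0.65. A dim second Cryaa probe, not well above background in either group, read a difference of -0.29. Ahsg, the gene of fetuin-A, a plasma protein known from liver that keeps calcium phosphate from precipitating, read -2.73, -2.70 and -3.33 in lesions, against -6.38, -5.13 and -6.28. No eutopic array measured Ahsg above background, and it was at least 3.36-fold higher in lesions. Scd1, the desaturase that makes monounsaturated fatty acids, read 2.37, 3.70 and 1.00 in lesions, against -0.28, -2.52 and -2.004 in eutopic endometrium, a difference of 3.96 ± 0.60.

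Il33, Cd5l and Clec4d are genes of immune responses. Il33 encodes an alarm cytokine released by damaged stromal, endothelial and epithelial cells. It was bright enough to be measured on all 6 arrays and read 1.13, 0.88 and -0.10 in lesions, against -2.05, -2.80 and -2.27 in eutopic endometrium, a difference of 3.01 ± 0.50. Cd5l, a secreted macrophage protein that inhibits apoptosis, differed by 2.92 ± 0.51 and was measured on all 6 arrays. Clec4d, a C-type lectin receptor of myeloid cells, read 2.39, 3.46 and -0.17 in lesions, against -3.51, -2.80 and -5.26, and was measured on 2 of 3 eutopic arrays. Lesion replicate 3 was the lowest of the lesion arrays for Scd1, Il33, Cd5l and Clec4d. Wfdc21, a gene of the WAP-domain family of small secreted proteins, differed by 5.84 ± 0.99, and Nkx2-3, a homeobox factor of gut and spleen mesenchyme, by 2.84 ± 0.51, both measured on 1 of 3 eutopic arrays. Without lesion replicate 3 the limma count was 50 features, 48 of them higher. Without eutopic replicate 1 it was 10.

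The 10 named genes with the smallest p among those lower in lesions did not pass either, with limma adjusted p between 0.0865 and 0.411. Each had all lesion values below all eutopic values, against 4.02% of all features, which the choice by small p again favours. Xpnpep2, a membrane-bound aminopeptidase that cleaves before proline, read -2.48, -1.53 and -2.60 in lesions, against 1.15, 0.31 and -0.30 in eutopic endometrium, a difference of -2.59 ± 0.41. Foxa2, the gland factor, read -3.39, -6.66 and -6.87 in lesions, against 0.00, -0.55 and -1.87, a difference of -4.83 ± 0.88. It was well above background on 1 of 3 lesion arrays and on all 3 eutopic arrays. Lesion replicate 1 held the highest lesion value, and without it Foxa2 was called lower by limma (adjusted p = 0.021). Scgb3a1, a small secretoglobin known from airway epithelium, read -2.62, -2.21 and -2.10 in lesions, against 0.42, 1.97 and 1.17, a difference of -3.49 ± 0.79.

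Trdn and Pln are genes of muscle cells. Trdn, the gene of triadin, which anchors the calcium release complex of muscle, read -3.30, -3.84 and -3.11 in lesions, against -0.80, -1.90 and -1.66 in eutopic endometrium. Pln, the gene of phospholamban, an inhibitor of the calcium pump of heart and smooth muscle, read -4.71, -6.10 and -5.65 in lesions, against -2.30, -3.09 and -3.99, and was measured on 1 of 3 lesion arrays. The Pln difference of -2.36 ± 0.57 was -1.42 within slide 2. Pcdh11x, a protocadherin on the X chromosome, was not well above background on any lesion array and at least 1.95-fold lower. Gsta2, a glutathione S-transferase, was also not measured on any lesion array and was at least 2.10-fold lower. Lgals2 (galectin 2) differed by -1.90 ± 0.45 and Bex4 by -2.07 ± 0.50. Becn2, a beclin of the autophagy machinery, was measured on 0 of 3 lesion arrays and 1 of 3 eutopic arrays and was at least 1.12-fold lower.

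**Figure D1:**
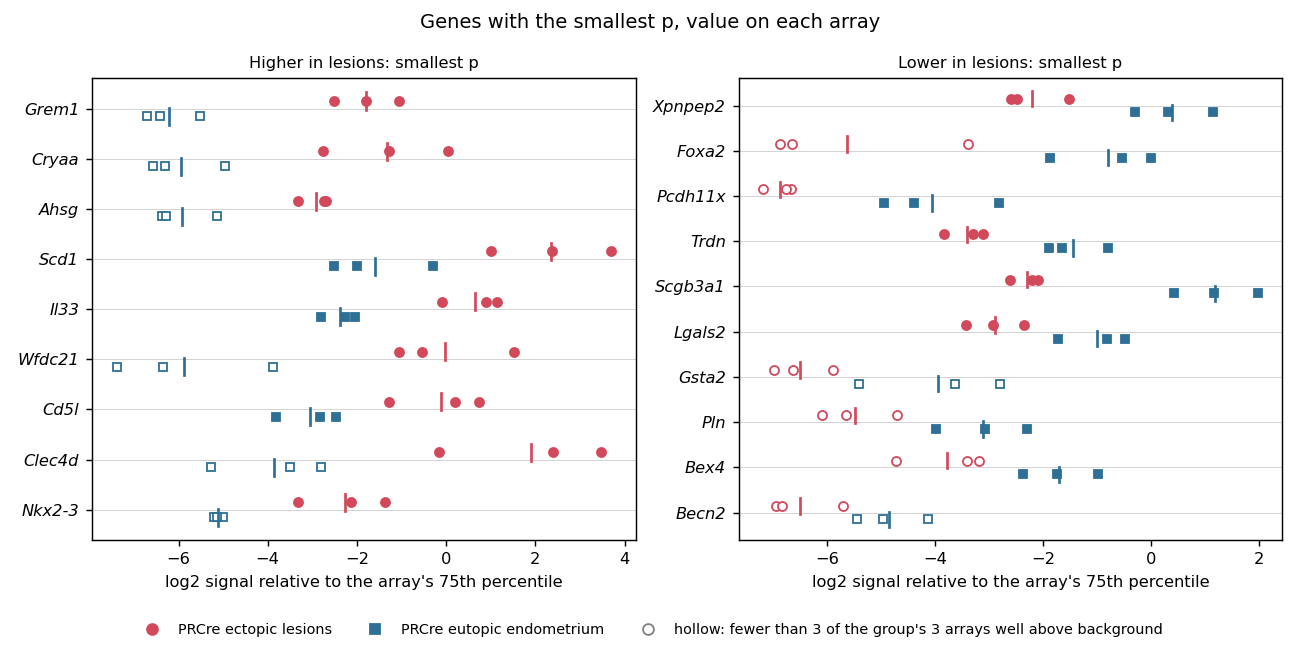
Level of the named genes with the smallest p in each direction on each array, in log2 units relative to the array's 75th percentile, with lesions (circles, upper row of each gene) above eutopic endometrium (squares, lower row) and short bars for group means. No gene shows overlap between its 3 lesion and 3 eutopic values, which the choice by small p favours. Grem1, the only one called, lies between -2.53 and -1.06 in lesions with hollow eutopic symbols.

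Genes that mark fat cells had the highest median difference of all lists of 10 or more genes in the scaling used here, though B cell genes had 1.79, against 1.78 for fat cell genes, with slide as a block. Of 25 adipocyte genes tested, 0 passed, 20 read higher and 5 lower, with a median difference of 1.77 against -0.06 over all features. All 3 lesion values lay above all eutopic values for 14 of the 25, against 2.9% of all features. Plin1 encodes perilipin, the coat protein of the fat droplet, and read -0.35, 1.40 and -0.67 in lesions, against -2.71, -4.87 and -5.36 in eutopic endometrium, with 2 of 3 eutopic arrays well above background. Lpl, lipoprotein lipase, which frees fatty acids from circulating particles, read 3.39, 3.96 and 1.64 in lesions, against 1.06, 0.14 and -0.09. Acsl1, which activates long fatty acids, read 2.00, 3.93 and 0.88 in lesions, against 0.21, -0.88 and -0.94. For these 3 genes no lesion value fell into the eutopic range. The differences were 4.44 ± 0.82 for Plin1, 2.62 ± 0.52 for Lpl and 2.81 ± 0.60 for Acsl1 (limma, adjusted p = 0.137, 0.159 and 0.27).

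Hormone and droplet genes of mature fat, chosen for display after their values were seen, showed how the eutopic arrays differed among themselves. Adipoq, the gene of the fat hormone adiponectin, read 3.03, 4.61 and 1.79 in lesions, against 0.81, -4.76 and -3.43 in eutopic endometrium. Fabp4, the fatty acid carrier of adipocytes, read 4.78, 6.50 and 3.53 in lesions, against 2.04, -2.71 and -1.42. Eutopic replicate 1 was the highest eutopic array for both, and lesion replicate 2 the highest lesion array. Lep, the leptin gene, read -2.19, -2.14 and -2.73 in lesions, against -2.16, -2.03 and -2.08, and its groups overlapped. The list median was 2.19 within slide 2 and 1.19 to 1.99 when each array was left out in turn. Fewer cells of a type and less RNA per cell cannot be told apart in such pools of tissue, here and for every list of cell markers below.

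Lipid genes outside the marker list had list medians close to that of all features. Of 22 genes of cholesterol and fatty acid synthesis, 0 passed, 14 read higher and 8 lower, with a median of 0.07 that was -0.42 within slide 2. Still, 4 of the 22 had all lesion values above all eutopic values, against 2.9% of all features. Scd1 above was the member with the smallest p. Fasn, fatty acid synthase, read 5.19, 5.12 and 5.29 in lesions, against 3.93, 4.33 and 4.44 in eutopic endometrium, without overlap and with a difference of 0.97 ± 0.47. Acaca, which makes malonyl-CoA for fatty acid synthesis, differed by 0.97 ± 0.45. Of 15 genes of fatty acid oxidation and heat production 8 read higher and 7 lower, with a median of 0.01.

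Acute phase and secreted innate proteins, which liver and other tissues release in inflammation, read higher for 18 of 21 genes and lower for 3, with 0 called. The median was 1.20, or 0.62 with 3 genes that no eutopic array measured set to their bounds. Lesion values lay wholly above eutopic values for 9 of 21, against 2.9% of all features. Orm1 and Orm2 encode orosomucoids, plasma proteins that bind drugs and damp inflammation. Orm2, whose promoter is printed above, read -1.93, -0.82 and -2.96 in lesions, against -4.32, -7.04 and -6.43 in eutopic endometrium. Orm1 read -0.08, 0.74 and -1.57 in lesions, against -3.13, -6.88 and -6.42. Both were measured on all 3 lesion arrays and on 1 of 3 eutopic arrays, replicate 1 being the brightest eutopic value of each. These genes are close copies, and their probes may share signal. Serpina3n, a serine protease inhibitor, differed by 2.86 ± 0.71. The list median was 1.71 within slide 2, 0.97 to 1.53 when arrays were left out in turn, 0.47 with normexp and 0.51 with a filter on all 18 arrays, which removes dim genes.

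Complement genes, some of which also stand in the adipocyte or macrophage list, read higher for 16 of 20. Their median of 0.78 was 0.42 without lesion replicate 2 and 0.39 with array weights. All lesion values lay above all eutopic values for 3 of them, against 2.9% of all features. Cfd, complement factor D, which fat cells also secrete, read 5.90, 7.77 and 5.89 in lesions, against 3.99, -1.87 and 0.58 in eutopic endometrium. C5ar1, the receptor of the complement fragment C5a, differed by 1.82 ± 0.61, and C4b, a component of the classical pathway, by 1.35 ± 0.52. Of 15 genes of iron and haem handling 11 read higher and 4 lower, with a median of 0.54 that was 0.33 without lesion replicate 2. Trf, the iron carrier transferrin, read 5.22, 6.02 and 4.37 in lesions, against 3.91, 4.00 and 3.05 in eutopic endometrium, without overlap and with a difference of 1.55 ± 0.39. Hmox1, which breaks down haem, read 2.54, 3.79 and 1.14 in lesions, against -0.12, 1.69 and 0.79, and its groups overlapped. Haemoglobin and other erythroid genes, 8 tested, had a median of 0.19 that was -1.25 within slide 2, and for 0 of them did the groups not overlap.

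**Figure D2:**
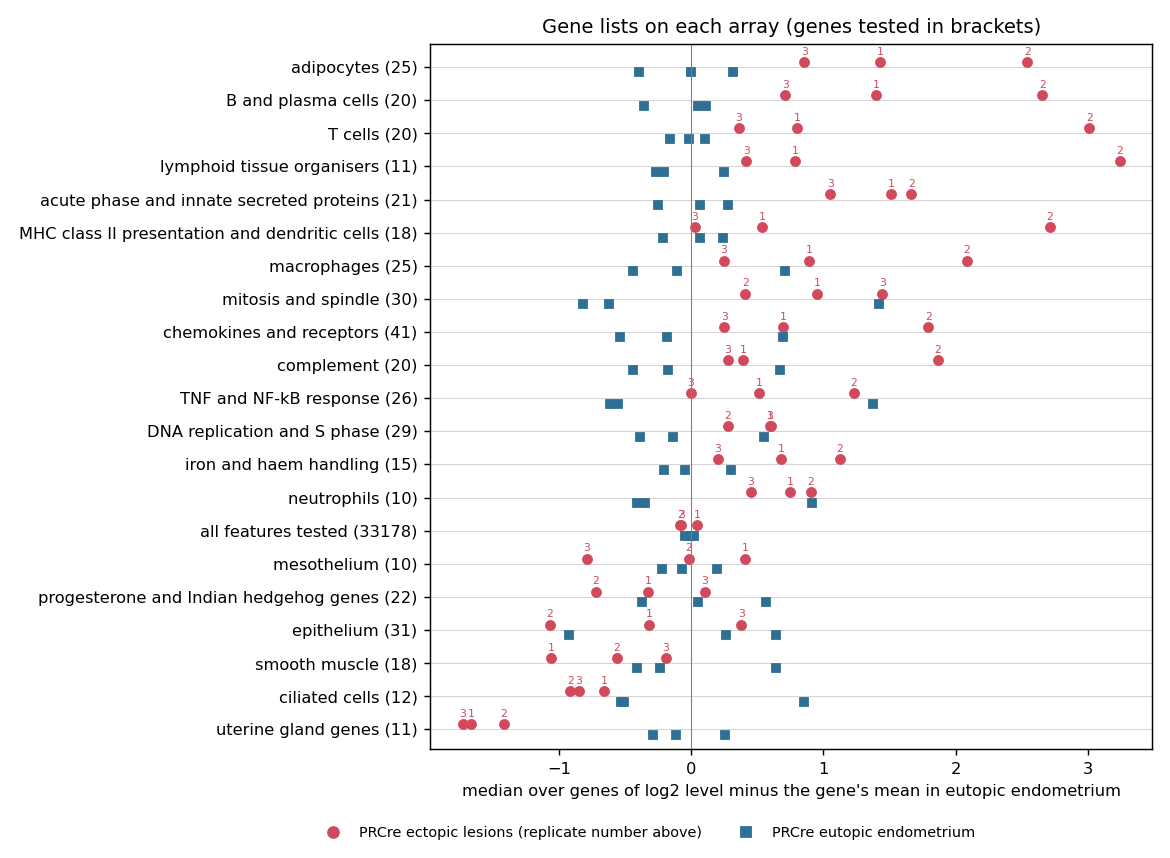
Median over the genes of a list of the log2 level on an array minus the gene's mean in eutopic endometrium, for the 14 lists of 10 or more genes with the highest and the 6 with the lowest median difference and for all features, with lesions (circles) above eutopic endometrium (squares). Adipocyte, B cell, T cell, lymphoid organiser and acute phase lists have all 3 lesion arrays above all 3 eutopic arrays, lesion replicate 2 is highest for the B cell, T cell, lymphoid organiser, MHC class II, macrophage, chemokine and complement lists, and gland and ciliated cell lists have all 3 lesion arrays lowest.

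B and plasma cell genes read higher for 18 of 20 and lower for 2, with a median difference of 1.59. None passed, and 7 of 20 had all lesion values above all eutopic values, against 2.9% of all features. Ms4a1, the gene of the B cell surface protein CD20, read -0.83, 0.58 and -2.46 in lesions, against -5.90, -5.50 and -6.54 in eutopic endometrium. No eutopic array measured it, and it was at least 14.1-fold higher in lesions (limma, adjusted p = 0.14). Cd79b, a signalling chain of the B cell receptor, read 1.14, 2.83 and 1.09 in lesions, against -0.72, 0.00 and 0.05, without overlap. Not every B cell marker separated the groups. Pax5, which sets B cell identity and was chosen after its values were seen, differed by -0.15 ± 0.27. Jchain, the joining chain of secreted antibodies, also chosen afterwards, read 4.83, 5.83 and 3.34 in lesions, against 4.34, 2.55 and 0.82, and its groups overlapped. The list median was 2.22 within slide 2, 1.04 without lesion replicate 2 or eutopic replicate 3, 0.65 with normexp and 0.45 with the filter on all 18 arrays.

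T cell genes read higher for all 20 tested, with a median of 1.38. For 7 of them all lesion values lay above all eutopic values, against 2.9% of all features. Il7r, the receptor for the lymphocyte survival factor interleukin 7, read 0.85, 1.28 and -1.81 in lesions, against -1.98, -2.02 and -2.79 in eutopic endometrium. Cd5 and Cd6, related receptors of T cells, differed by 2.52 ± 0.73 and 2.79 ± 0.87, with lesion replicate 2 the highest array of both. Cd3e, a chain of the T cell receptor complex chosen after its values were seen, read 1.39, 2.89 and 0.58 in lesions, against 1.46, 1.78 and 1.58, a difference of 0.01 ± 0.56. The T cell median was 0.42 without lesion replicate 2, against 1.38 with it. Of 24 NK and cytotoxic lymphocyte genes 11 read higher and 13 lower, with a median of -0.06. Among these Klra4, an inhibitory receptor of NK cells, read -0.89, -0.15 and 0.36 in lesions, against 0.96, 0.59 and 1.17 in eutopic endometrium.

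Genes that organise lymphoid tissue read higher for all 11 tested, with a median of 1.33, or 0.70 with 3 genes that no eutopic array measured at their bounds. Cxcl13, the chemokine that draws B cells into follicles, read -0.96, 0.67 and -2.92 in lesions, against -6.36, -4.44 and -5.47 in eutopic endometrium, with 1 of 3 eutopic arrays well above background. Cxcr5, its receptor, read -2.84, -2.05 and -3.61 in lesions, against -4.95, -7.65 and -6.61, none of which was measured, and was at least 3.70-fold higher. Ccr7, which guides lymphocytes and dendritic cells to lymph nodes, differed by 2.46 ± 0.58. Cxcl13, Cxcr5 and Ccr7, the members with the smallest p, had lesion values above every eutopic value, and none passed (limma, adjusted p = 0.401, 0.183 and 0.39). Over the whole list this held for 4 of 11 genes, against 2.9% of all features. The list median was 0.46 without lesion replicate 2, 0.59 with normexp and 0.50 with the filter on all 18 arrays. Over 41 chemokines and receptors 32 read higher and 9 lower, with a median of 0.89 that was 0.46 without lesion replicate 2. Of the 41, 8 had all lesion values above all eutopic values, against 2.9% of all features.

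Macrophage genes read higher for all 25 tested, with a median of 1.08. In 4 members all lesion values lay above all eutopic values, against 2.9% of all features. Marco, a scavenger receptor of resident macrophages, read 0.18, 4.48 and -0.87 in lesions, against -2.82, -2.31 and -3.21 in eutopic endometrium. Msr1, another scavenger receptor, was not measured on any eutopic array and was at least 3.71-fold higher. Retnla, a secreted product of alternatively activated macrophages, read 2.74, 2.34 and 2.44 in lesions, against 1.47, -0.55 and 0.74, a difference of 1.96 ± 0.59. The macrophage median was 0.50 without lesion replicate 2 and 1.75 within slide 2. MHC class II and dendritic cell genes read higher for 16 of 18 with a median of 1.13, but 0 of 18 had groups without overlap, and the median was 0.31 without lesion replicate 2. Ctss, a protease that trims the class II invariant chain, read 6.05, 7.33 and 4.72 in lesions, against 3.15, 5.31 and 4.13.

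Neutrophil genes read higher for 9 of 10, and 4 had all lesion values above all eutopic values, against 2.9% of all features. Their median of 0.46 was 0.30 without lesion replicate 2 and 1.02 without eutopic replicate 2. S100a8 and S100a9 encode the subunits of calprotectin. S100a8 read 2.09, 0.81 and 0.86 in lesions, against -4.54, -0.76 and -4.23 in eutopic endometrium, and S100a9 read 3.61, 1.93 and 2.63 in lesions, against -3.66, 1.28 and -2.70. Eutopic replicate 2 was the highest eutopic array for both. It was also the highest eutopic array for Il1b, the gene of interleukin 1 beta, which read 0.60, -0.28 and -1.63 in lesions, against -6.12, -0.82 and -6.39, with overlap. TNF and NF-kB response genes read higher for 20 of 26, with 0 of 26 without overlap. Their median of 0.66 was 0.36 without lesion replicate 2, 0.33 without eutopic replicate 1, 0.30 without eutopic replicate 3 and 1.49 without eutopic replicate 2. Vcam1, an adhesion molecule for leukocytes, differed by 1.59 ± 0.59 within overlapping groups. Inflammasome and interleukin 1 genes had a median of 0.38 and genes of the TNF death complex and apoptosis 0.11, with Ripk3, a kinase of necroptosis, at 0.58 ± 0.34.

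Interferon response genes read higher for 24 of 25 with a median of 0.38, yet the median was -0.35 within slide 2 and -0.36 without eutopic replicate 1. Cxcl9, a chemokine induced by interferon gamma, read -1.67, 4.21 and -1.91 in lesions, against -4.07, -2.83 and -2.80 in eutopic endometrium, so its size rested on lesion replicate 2. Genes of the interleukin 6 family had a median of 0.17, and Il6 itself was measured on 2 of 3 lesion arrays and 1 of 3 eutopic arrays with overlap. Mast cell and eosinophil genes had a median of -0.21 over 14 genes, and 0.38 within slide 2.

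Uterine gland genes read lower in lesions for 10 of 11 tested, with a median of -1.92, or -1.33 with 3 genes whose probe no lesion array measured at their bounds. None passed, and 2 had all lesion values below all eutopic values, against 4.02% of all features. Beside Foxa2 above, this was Wfdc3, a WAP-domain gene, which read -5.68, -6.82 and -5.24 in lesions, against -3.24, -2.73 and -3.05 in eutopic endometrium. No lesion array measured this Wfdc3 probe, and its signal was at least 3.99-fold lower. A second Wfdc3 probe, measured on 1 of 3 lesion arrays and 2 of 3 eutopic arrays, differed by -0.92. Calb1, a calcium-binding protein of the endometrium, differed by -1.33 ± 0.93 with overlap, and by -0.36 on a dimmer second probe. Spink1 and Prss29, secreted gland products were chosen after their values were seen. Spink1 read 2.58, -4.70 and 2.78 on the eutopic arrays and Prss29 read 6.19, -3.34 and 3.53, both lowest on replicate 2, and their differences of -3.40 ± 3.21 and -3.43 ± 3.43 were close to their errors. The gland median stayed below 0 when arrays were left out, at -2.39 to -1.40, and was -0.98 within slide 2 and -0.94 with normexp.

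Ciliated cell genes read lower for 10 of 12 with a median of -0.91. Lesion values lay wholly below eutopic values for 5 of 12, against 4.02% of all features. Foxj1, the factor that turns on motile cilia, read -6.67, -5.89 and -6.82 in lesions, none of them well above background, against -4.39, -1.02 and -3.29 in eutopic endometrium. It was at least 4.35-fold lower. Rsph1, a radial spoke protein of the cilium, differed by -1.09 ± 0.33, and Tekt4, a tektin of the axoneme, by -0.58 ± 0.25. Eutopic replicate 2 was the highest array for all 3 genes. It was highest as well for Ovgp1, an oviduct glycoprotein, which read -1.42, -2.96 and -1.68 in lesions, against 1.52, 6.28 and 1.66. Without eutopic replicate 2 the ciliated median was -0.36, and it was -0.23 within slide 2, where that array was absent. It was -0.50 with normexp and -0.18 with the filter on all 18 arrays. The part of oviduct tissue, of which Ovgp1 is a marker, in these values was not tested. Over 9 ovary and oviduct genes the median was -0.06. Of these, 2 lay wholly above and 2 wholly below the eutopic values, against 2.9% and 4.02% of all features. Oosp1 was above, at 2.94 ± 1.02 and measured on 1 of 3 eutopic arrays, and Nlrp5 was below, at -0.53 ± 0.19.

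Epithelial, stromal and smooth muscle genes of uterus mostly read lower in lesions, and 0 passed. Of 31 epithelial genes 29 read lower and 2 higher, with a median of -0.40, but 0 had groups without overlap, and the median was -1.08 within slide 2, -0.01 without lesion replicate 2 and -0.91 without eutopic replicate 1. Krt18, a keratin of simple epithelium, read 6.22, 5.09 and 6.55 in lesions, against 6.09, 7.18 and 6.75 in eutopic endometrium. Stromal genes read lower for 10 of 12 with a median of -0.25, which turned to 0.04 without eutopic replicate 1. Emx2, a homeobox factor of the stroma, read 3.12, 2.70 and 3.71 in lesions, against 3.81, 3.79 and 3.81, all lesion values below the eutopic ones, with a difference of -0.63 ± 0.25. Smooth muscle genes read lower for 16 of 18 with 0 of 18 without overlap and Tpm2, a tropomyosin, at -0.83 ± 0.41. Their median of -0.60 was -0.23 without eutopic replicate 1 and -0.31 without lesion replicate 1. Of 32 Hox genes tested 25 read lower, with a median of -0.22 and Hoxc11 at -1.45 ± 0.47.

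The receptors through which the tissue reads ovarian hormones did not pass. Esr1, estrogen receptor alpha, read 3.47, 2.31 and 3.84 in lesions, against 3.81, 3.10 and 3.95 in eutopic endometrium, a difference of -0.41 ± 0.33. Esr2, estrogen receptor beta, read 2.52, 2.39 and 2.46 in lesions, against 2.53, 2.15 and 2.63, a difference of 0.02 ± 0.20. Pgr, the progesterone receptor, read 0.78, -0.10 and 2.05 in lesions, against 1.28, 0.40 and 1.99, a difference of -0.31 ± 0.59. All 3 overlapped between groups. Within slide 2 the differences were -1.06 for Esr1, -0.17 for Esr2 and -1.65 for Pgr, and with slide as a block Pgr differed by -0.92. A dim second Esr2 probe, measured on 0 of 3 lesion arrays and 1 of 3 eutopic arrays, differed by -1.04. On the brighter Esr2 probe the ERBOE means were 2.20 in lesions and 2.45 in eutopic endometrium, against 2.46 and 2.44 in PRCre. That probe thus showed no clear rise in mice described as overexpressing this receptor, and the cause was not tested. Over 17 receptors and partners the median was -0.07.

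Targets of these hormones were as mixed. Estrogen-induced uterine genes read higher for 10 and lower for 10 of 20 tested, with a median of 0.02 that was -1.28 within slide 2 and -1.20 to 0.94 when arrays were left out. Slpi, a secreted protease inhibitor of epithelium, had the smallest p of the list and read 4.47, 7.17 and 2.97 in lesions, against 2.55, 3.07 and 1.84 in eutopic endometrium, while a second Slpi probe, bright on all 6 arrays, differed by -0.23. Progesterone and Indian hedgehog genes read lower for 17 of 22, with a median of -0.38 that was -0.09 without lesion replicate 2 and -0.18 without eutopic replicate 1. Acod1, which makes itaconate, was the exception without overlap and read 1.23, 2.58 and -1.36 in lesions, against -1.99, -2.07 and -4.03. Nr2f2, a stromal nuclear receptor downstream of hedgehog signals, differed by -0.55 ± 0.31.

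Mitosis genes read higher for 29 of 30 with a median of 0.90, but this difference did not hold within the slide that carried both groups, where the median was -0.68. Mki67, a marker of cycling cells chosen after its values were seen, read 1.59, 1.81 and 1.75 in lesions, against -0.12, -0.09 and 1.84 in eutopic endometrium. Eutopic replicate 3, the only eutopic array on slide 2, was thus as high as the lesions. Ndc80, a kinetochore gene, and Kif11, a spindle motor, were measured on 3 of 3 lesion arrays and 1 of 3 eutopic arrays and overlapped in the same way. DNA replication genes read higher for 27 of 29 with a median of 0.55, and -0.10 within slide 2. E2f1 and E2f2, transcription factors of the S phase entry, differed by 1.17 ± 0.53 and 1.09 ± 0.50 without overlap.

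Matrix genes held a few members with large differences among many near 0. Mmp12, the elastase of macrophages, read 1.42, 0.34 and -3.94 in lesions, against -6.63, -5.40 and -6.39 in eutopic endometrium, where no array measured it, and was at least 16.0-fold higher. Tnc, the wound matrix protein tenascin C, read -2.79, -3.26 and -2.89 in lesions, against -5.35, -5.41 and -6.28, and was at least 3.34-fold higher. Col8a1, a short-chain collagen of vessels, differed by 2.57 ± 0.59 without overlap, and Timp1, an inhibitor of matrix proteases, by 1.81 ± 0.62. The medians were 0.21 over 28 collagen genes, 0.35 over 26 matrix glycoproteins and mesenchymal regulators and 0.29 over 26 proteases and inhibitors. Within slide 2 they were -0.09, 0.35 and 0.78. In these lists 1, 5 and 2 members lay above the eutopic range, against 2.9% of all features. For the 28 collagen genes the count of 1 is close to that share. Over 34 endothelial and angiogenic genes the median was 0.27. Prox1, the factor of lymphatic endothelium, read -1.43, -1.71 and -2.33 in lesions, against -2.46, -2.83 and -3.84 in eutopic endometrium.

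Growth factor pathways were near 0 as lists. In the TGF-beta, activin and BMP system, to which Grem1 belongs, 1 of 33 genes passed, 19 read higher and 14 lower, with a median of 0.15, and the count of 1 is Grem1 itself. Chrd, another BMP antagonist chosen after its values were seen, differed by -0.12 ± 0.56, and Bmp4 and Bmp2, ligands that such antagonists bind, by 0.19 ± 0.32 and -0.41 ± 0.31, all with overlap. Wnt genes had a median of 0.01 over 36, and 0.36 within slide 2. Sfrp1, a secreted Wnt inhibitor, read -0.23, -0.84 and -1.50 in lesions, against -2.86, -4.31 and -4.14 in eutopic endometrium, a difference of 2.91 ± 0.63 without overlap (limma, adjusted p = 0.273). The IGF system had a median of 0.10 over 13, with Igfbp2, an IGF-binding protein, at 1.70 ± 0.80, and EGF receptor ligands -0.18 over 14. Within slide 2 these 2 medians were 0.49 and -0.38.

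Enzymes of local hormone and prostaglandin supply gave no common direction. Steroid synthesis genes had a median of 0.20 over 12, and 0.88 within slide 2, with Star, the cholesterol carrier of steroidogenesis, at 0.90 ± 0.53. Prostaglandin genes had a median of -0.02 over 20. Hpgd, which inactivates prostaglandins, read 0.48, -0.05 and 0.04 in lesions, against 1.24, 1.38 and 1.07 in eutopic endometrium, below the eutopic range. Medians were 0.02 for glycolysis and hypoxia, -0.21 for nerve genes, -0.15 for immediate-early genes, -0.12 for antioxidant enzymes and -0.02 for aquaporins. Within slide 2 these 5 medians were 0.25, -0.03, 0.58, -0.17 and 0.40, in the same order. Lists for other tissues had medians from -0.35 to -0.07. Mesothelium had a median of -0.27 over 10 genes, skeletal muscle -0.17 over 18, intestine and pancreas -0.35 over 7 and squamous keratinocytes -0.07 over 9. Within slide 2 the median was 0.34 for mesothelium, -0.12 for skeletal muscle, 0.27 for intestine and pancreas and -0.66 for squamous keratinocytes. Of the skeletal muscle genes 6 read higher and 12 lower. Cacna1s and Myl1, 2 of 18, had all lesion values above all eutopic values, against 2.9% of all features. The Myl1 difference of 1.84 ± 0.73 was 0.96 with slide as a block, and other Myl1 probes differed by 3.81 and -1.49. Myf6 was measured on 0 of 3 lesion arrays and 2 of 3 eutopic arrays and was at least 3.23-fold lower, with overlap. The mesothelial list held Prg4, the lubricin gene, which read -0.76, -1.60 and -2.15 in lesions, against -5.42, -3.95 and -5.37 in eutopic endometrium, a difference of 3.41 ± 0.90. Rspo1 went the other way and read 2.74, 3.01 and 3.02 in lesions, against 3.28, 3.23 and 3.43, a difference of -0.39 ± 0.24. Of the 10 genes 1 lay wholly above and 1 wholly below the eutopic values, against 2.9% and 4.02% of all features. Upk3b, uroplakin 3B, and Msln, mesothelin, the latter chosen after its values were seen, overlapped.

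The same difference was measured in ERBOE on 6 other arrays, which share no sample with the PRCre arrays but share the slides and the spread of the fit. There limma called 205 features, 160 higher (0.482%) and 45 lower (0.136%) in lesions, or 0.618% of 33178. In PRCre, 197 of these 205 had the same sign and 120 had groups that did not overlap in that direction. Of the 961 features with all PRCre lesion values above the eutopic ones, 83.6% were positive in ERBOE, where 38.8% of all features were positive, and of the 1333 with all below, 83.9% were negative, where 61.2% of all features were. Of the 10 named higher genes 9 passed in ERBOE, and of the 10 named lower genes 4. Scgb3a1 was lower by little in ERBOE, at -0.28 ± 0.79, against -3.49 ± 0.79 in PRCre. Over all features the differences correlated at r = 0.596, across features that are not independent.

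Whether the lesion difference itself depended on genotype was tested with the interaction in limma. It called 0 of 33178 features, with 540 at an unadjusted p under 0.05 (1.63%), so no gene is shown to be particular to PRCre. Grem1 differed by 6.28 ± 0.44 in ERBOE, against 4.43 ± 0.44 in PRCre, an interaction of 1.85 ± 0.63 that did not pass. No eutopic array of either genotype measured Grem1, so this value rests on background levels there. Me1, malic enzyme, which supplies NADPH for fat synthesis, had the smallest interaction p and differed by 2.72 ± 0.27 in ERBOE, against 0.66 ± 0.27 in PRCre. Vil1, the villin gene, differed by -2.13 ± 0.39 in ERBOE, against 0.29 ± 0.39 in PRCre. It was measured on 0 of 3 lesion and 3 of 3 eutopic arrays in ERBOE, so that value rests on background levels in lesions. In PRCre it was measured on 3 of 3 lesion and 1 of 3 eutopic arrays. Ereg, the EGF receptor ligand epiregulin, was measured on 2 of 3 lesion arrays in ERBOE and 1 of 3 in PRCre, and on 0 of 3 eutopic arrays of each. Nol3, an inhibitor of cell death, differed by 1.75 ± 0.23 in ERBOE, against 0.35 ± 0.23 in PRCre. A530016L24Rik was measured on 3 of 3 lesion arrays in ERBOE and 2 of 3 in PRCre, where it was at least 2.18-fold higher, and on 0 of 3 eutopic arrays of each. Of the 25 adipocyte genes 16 passed in ERBOE, all higher, against 0.482% of all features called higher there. In PRCre 0 passed, against 0.00301% of all features called higher. The list median was 3.08 in ERBOE, against 1.77 in PRCre, where the medians over all features were -0.12 and -0.06. B and plasma cell genes had a median of 0.84 in ERBOE, against 1.59 in PRCre, and T cell genes 0.67, against 1.38. These list medians were not tested against each other.

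**Figure D3:**
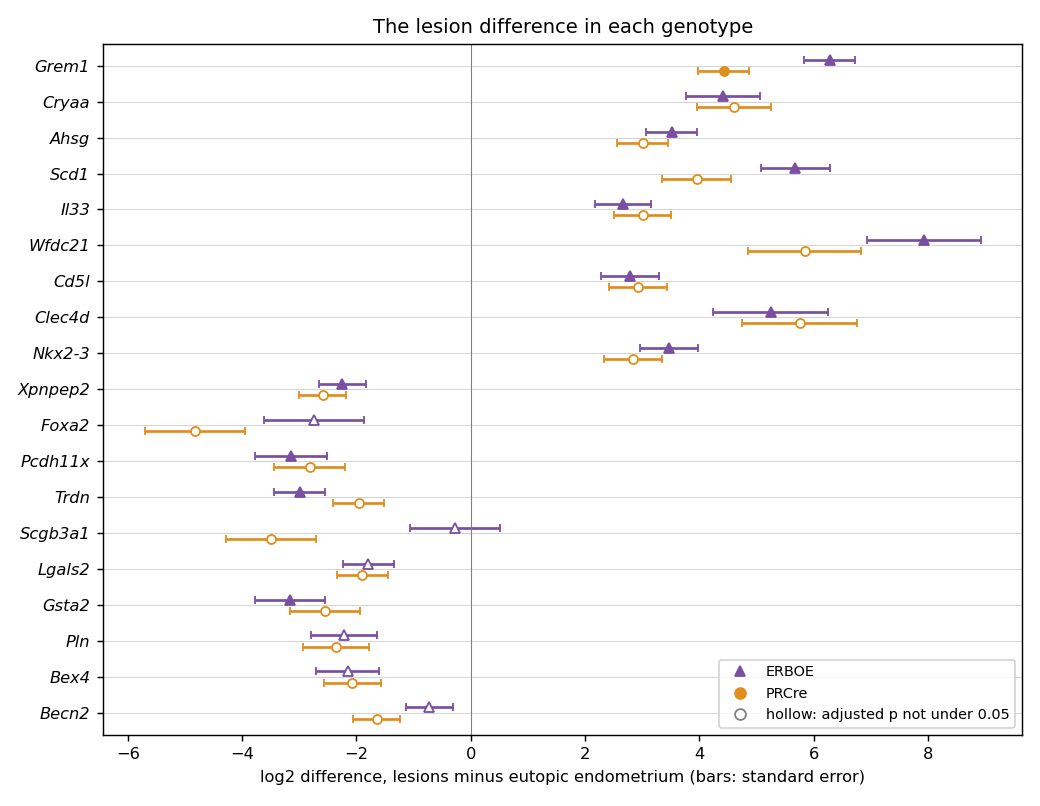
Log2 difference between lesions and eutopic endometrium for the named genes with the smallest p in each direction, ERBOE (triangles) above PRCre (circles), with standard errors from limma (also for genes dim in a whole group, whose fold is only a bound) and filled symbols where the adjusted p is under 0.05. All genes shown have the same sign in ERBOE as in PRCre, Grem1 is the gene filled in PRCre, and Scgb3a1 shows a PRCre value farther from 0.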

How the data were processed

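RNA of pooled mouse tissue was measured on 18 1-colour Agilent arrays, of which 6 carried the PRCre lesions and eutopic endometrium. Spot intensity was deposited as scanner output, background-subtracted and detrended by Feature Extraction 11.0.1.1 per the file headers, and not normalized between arrays. The authors' value table holds log2 values centred per probe. The steps behind it are not given in the sources used here, its column medians ran from -0.0977 to 0.0854, and it correlated with the centred scanner values at 0.9947 to 0.9981, so its direction is that of the scanner values.

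Control spots and spot outliers were left out, the latter 1801 values in tested features. The log2 processed signal minus each array's 75th percentile was used. Probes had to be well above background on 3 or more of the 18 arrays, and the brightest probe stood for a gene. Of 56605 probes 32994 were given 1 of 22911 symbols, through RefSeq GRCm38.p6. limma 3.58.1 in R 4.3.3 fitted 6 group means over 18 arrays, which share 1 estimate of spread, with Benjamini-Hochberg adjustment over all 33178 features at 0.05. A bound ("at least") sets the mean of the bright group against the higher of each dim array's lowest well-measured signal and the probe's own signal.

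Replicate numbers came from the titles. Deviations from the group mean of lesions and eutopic samples with the same number correlated at 0.339, 0.227 and 0.135, all over 0.1. Those with different numbers correlated at -0.229 to -0.004. Deviations in a group sum to 0, which ties these values together. The main fit held no pairing, and a fit with the numbers as a block was run beside it. Nothing in the titles says what a number stands for, and p-values measure the spread between pools. The number of arrays limits the precision.

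The named genes are Esr1, Esr2 and Pgr, the genes past the threshold, the 10 with the smallest p in each direction where fewer than 5 passed, the 3 with the smallest p of each list and the 5 with the smallest interaction p. A few genes that these rules or lists hold are counted but not reported by name. The 52 gene lists and the genes shown were chosen with earlier results of these data known. Some genes stand in several lists, among them Cfd, Cxcl13, Cxcr5, Ccr7 and Hmox1, so list counts are not separate results. Alternatives were another background correction (normexp with offset 50 on the median spot signal, since the mean signal planned was not used), quantile and median scaling, the value table, 3 filters, the mean of all probes, array weights, a trended variance, slide and replicate blocks, the 6 arrays alone and leaving out each array.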

Additional observations from a re-analysis of the deposited data

How the results depend on the processing

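The limma count of 1 feature for lesions against eutopic endometrium, Grem1, was 1 with quantile or median scaling, the value table, no filter, a filter on the 6 arrays, the mean of all probes, and slide and replicate blocks. It was 0 with only the 6 arrays in the fit (1107 features at an unadjusted p under 0.05) and 0 with a filter on all 18 arrays (726), where Grem1 was not tested. It was 7 with normexp, 8 with a trended and robust variance and 24 with array weights. Leaving out 1 array at a time gave 1 to 50 features. The count was 50 without PRCre lesion replicate 3, 10 without PRCre eutopic replicate 1, 6 without ERBOE lesion replicate 2 (added after seeing the data), and 3 without PRCre lesion replicate 1, lesion replicate 2 or eutopic replicate 2. The cause was not tested. The fit with replicate number as a block gave 1 feature for this comparison, 0 for the interaction and 206 in ERBOE (156 higher and 50 lower, against 160 and 45). No named gene crossed the threshold with it in the PRCre comparison. The interaction count was 0 under every alternative run, with 235 to 4417 features at an unadjusted p under 0.05. The ERBOE count of 205, with alternatives added after seeing the data, was 1184 with array weights, 121 when probes had to be measured on all 18 arrays, and 62 to 262 when arrays were left out in turn.

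Of 4541 values for 171 named genes under alternatives, 4425 kept their direction and side of the threshold, 2 no longer passed, 54 newly passed and 60 moved, with 0 reversed among called genes, and 23 genes that did not pass did so under at least 1 alternative. Of 52 list medians 25 changed sign under at least 1 alternative, mostly ones near 0. Genes dim in a whole group have only a bound, and signal near background limits them.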

Other observations

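Genes outside the lists described above also read apart without passing, and were chosen after their values were seen. Clec4e, a myeloid receptor related to Clec4d, read 1.13, 2.50 and -2.72 in lesions, against -6.91, -4.02 and -6.60 in eutopic endometrium, with 1 of 3 eutopic arrays well above background and a difference of 6.14 ± 1.15 (limma, adjusted p = 0.14). F10, coagulation factor X, differed by 5.53 ± 1.04, and F7, coagulation factor VII, was at least 5.77-fold higher, with no eutopic array measuring it. Ccn5, a matricellular protein gene, read -1.75, -2.34 and -2.50 in lesions, against -6.85, -6.89 and -5.52, and was at least 5.75-fold higher. Slc7a10, an amino acid transporter known from adipocytes, differed by 4.89 ± 0.87. Lower in lesions was Agr2, a protein disulfide isomerase of secretory epithelium, which read -1.12, -1.26 and -1.04 in lesions, against 0.33, 2.48 and 0.79 in eutopic endometrium, a difference of -2.35 ± 0.59.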
